A study of Mus musculus with 27 samples.

Results

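The genes described here are 9 members of the insulin-IGF (insulin-like growth factor) system of the mouse, chosen by symbol: the ligand *Igf1*, the receptors *Igf1r* and *Insr*, and the binding proteins *Igfbp2*, *Igfbp3*, *Igfbp4*, *Igfbp5*, *Igfbp6* and *Igfbp7*. All were found among the 48795 genes listed for each library, and all 9 passed the filter on low counts that kept 20839 genes. IGF1 and IGF2 signal through the IGF1 receptor, a tyrosine kinase closely related to the insulin receptor, and both receptors pass the signal through docking proteins to PI3-kinase and AKT. The secreted IGF binding proteins hold most extracellular IGF, extend its life and keep it from or bring it to the receptor, and proteases release it again by cutting them. In the mouse embryo the insulin receptor family is needed for normal male sex determination, the process that the cultures studied here were built to follow.

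RNA was sequenced from 27 libraries in 9 groups of 3. All cells came from 1 line, clone 7 of XY embryonic stem cells of an F1 cross between C57BL/6 and CBA, and so all groups carry a Tesco-CFP reporter (a cyan fluorescent protein driven by a testis enhancer of *Sox9*) and the R26-rtTA transactivator. ESC were kept in 2i and LIF. EpiSC were made from them by 60 h in Activin A (20 ng/ml), bFGF (12 ng/ml) and knockout serum replacement, and the early mesoderm cells, M, by a further 36 h in bFGF (20 ng/ml), BMP4 (10 ng/ml) and the PI3-kinase inhibitor LY294002 (10 µM). The 5 intermediate mesoderm conditions then lasted 3.5 days. IM1 was a medium with BMP4 (20 ng/ml) and bFGF (5 ng/ml). IM3 held the same with retinoic acid (100 nM), IM2 added Activin A (10 ng/ml) to this, IM4 added the GSK3 inhibitor CHIR99021 (0.3 µM), and IM5 added both. The induced Sertoli-like cells, iSLC, were IM3 cells infected with lentiviruses for *Nr5a1* and *Dmrt1*, moved to a Sertoli medium with doxycycline for 4 days and sorted for CFP. That medium held Activin A, which IM3 did not, along with FGF9, EGF, FSH, prostaglandin D2 and testosterone. iSLC therefore differed from IM3 in the 2 forced factors, the infection, the medium with its Activin A, the time and the sort, which cannot be told apart. The study calls the libraries of a group biological replicates, and p-values measure the spread between these libraries.

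Expected counts summed to 35923040 to 84876603 per library. The labels were checked against markers. *Nr5a1* was at 87.2 to 100 TPM (a transcript level corrected for transcript length and library size) and *Dmrt1* at 192 to 228 TPM in iSLC. Both are the factors forced in iSLC. In M and IM1 to IM5 either gene was at most 1.19 TPM. *Dmrt1* was also at 19.8 to 23.2 TPM in ESC and 8.69 to 9.06 TPM in EpiSC. Of the other Sertoli markers listed, *Gata4* was at 153 to 167 TPM and *Sox9* at 23.3 to 26.5 TPM in iSLC, below IM3 (336 to 342 and 34.5 to 45.5 TPM). *Cldn11* was at 6.78 to 7.24 TPM and *Dhh* at 1.53 to 2.38 TPM in iSLC, above IM3 (0.42 to 0.53 and 0.66 to 0.72 TPM), and *Amh* was at 0.47 to 0.61 TPM in iSLC and 0.32 to 0.56 TPM in IM3. Of the intermediate mesoderm markers, *Wt1* was at 138 to 165 TPM in IM3, 110 to 126 in IM4 and 115 to 118 in iSLC, and at 5.74 to 31.4 TPM in IM1, IM2 and IM5. *Osr1* was at 0.8 to 4.83 TPM over the IM libraries and 8.56 to 11.6 TPM in iSLC, *Lhx1* at most 3.95 TPM and *Pax2* at most 0.24 TPM in any IM or iSLC library. The groups also fell on 2 sides by the counts of red blood cell genes, each group wholly on 1 side. In ESC, M, IM3 and IM4 (12 libraries) the genes of adult red blood cells summed to 4.02 to 27.6 CPM (counts scaled to the library total), and in EpiSC, IM1, IM2, IM5 and iSLC (15 libraries) to 0.375 to 1.38 CPM. The fitted GC trend of a library, the log2 level of its genes of highest against lowest GC content relative to all libraries, was -0.49 to -0.084 on the first side and -0.089 to 0.566 on the other. IM3 against M, IM4 against IM3 and IM5 against IM2 stay within a side. The other comparisons cross it, and there the side and the condition cannot be told apart. Among the retinoic acid media the side is the same as Activin A, absent in IM3 and IM4 and present in IM2 and IM5. EpiSC and iSLC, which also had Activin A, lie on the side of IM2 and IM5, as does IM1, which had none. In these bulk libraries, fewer cells of a type and less RNA per cell cannot be told apart either.

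The members lie at 8 places in the genome (GRCm38, GENCODE M21 gene limits). *Igfbp2* (chr1:72824503-72852474, plus strand) and *Igfbp5* (chr1:72857932-72874884, minus strand) are neighbours whose 3′ ends face each other across 5457 bases. *Igfbp3* (chr11:7206086-7213923, minus strand) lies 3539 bases from *Igfbp1*. *Igfbp4* is at chr11:99041244-99054392, *Igfbp6* at chr15:102144362-102149511, *Igfbp7* at chr5:77349240-77408041, *Igf1* at chr10:87858265-87937042, *Igf1r* at chr7:67952827-68233668 and *Insr* at chr8:3122061-3279617. Of the 9, *Igfbp7* alone has exons that overlap another gene, *Polr2b* on the opposite strand, over 7.03% of their bases, and the sources do not state a strand setting for the counting.

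The 250 bases before the RefSeq start site are shown for the 4 binding proteins that changed most with Activin A, written 5′ to 3′ on the strand of the gene (RefSeq sequence, GRCm38). *Igfbp2* and *Igfbp7* were higher with Activin A, and *Igfbp3* and *Igfbp5* lower. Capitals mark the GC box GGGCGG, read on either strand.
*Igfbp2* (chr1:72824230-72824479, plus strand): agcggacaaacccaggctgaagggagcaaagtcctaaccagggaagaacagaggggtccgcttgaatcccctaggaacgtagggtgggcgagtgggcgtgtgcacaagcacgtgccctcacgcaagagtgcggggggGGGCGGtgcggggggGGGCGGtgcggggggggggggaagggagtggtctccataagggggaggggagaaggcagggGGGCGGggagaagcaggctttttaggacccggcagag
*Igfbp7* (chr5:77408046-77408295, minus strand): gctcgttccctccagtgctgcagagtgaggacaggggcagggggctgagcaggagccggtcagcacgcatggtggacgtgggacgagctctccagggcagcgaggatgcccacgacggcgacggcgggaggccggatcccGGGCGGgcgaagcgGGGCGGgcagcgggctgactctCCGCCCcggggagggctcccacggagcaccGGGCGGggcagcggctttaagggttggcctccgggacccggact
*Igfbp3* (chr11:7213924-7214173, minus strand): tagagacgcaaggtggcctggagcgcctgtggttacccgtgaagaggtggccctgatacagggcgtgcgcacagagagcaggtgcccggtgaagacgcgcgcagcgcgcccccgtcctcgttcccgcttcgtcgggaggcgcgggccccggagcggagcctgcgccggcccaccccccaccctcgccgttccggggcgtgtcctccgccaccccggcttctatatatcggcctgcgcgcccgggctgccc
*Igfbp5* (chr1:72874866-72875115, minus strand): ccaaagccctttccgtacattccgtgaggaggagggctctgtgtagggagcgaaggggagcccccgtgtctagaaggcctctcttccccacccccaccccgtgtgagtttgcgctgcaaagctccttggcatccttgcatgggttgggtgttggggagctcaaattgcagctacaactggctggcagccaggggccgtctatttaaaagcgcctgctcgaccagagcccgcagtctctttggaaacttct
The *Igfbp2* window held 3 GC boxes, all on the gene strand, and the *Igfbp7* window 4, of which 3 were on the gene strand. The windows of *Igfbp3* and *Igfbp5* held none. Among the other members with a window, *Igf1r* held 2 GC boxes and *Igf1*, *Igfbp4* and *Igfbp6* held none. *Igf1r* was not called in either Activin A pair (log2 0.10 without CHIR99021 and -0.16 with it). Whether the boxes bear on the changes was not tested. Of 32851 mouse windows of the same length, 32.7% held at least 1. Windows of 8 of the 9 members were matched, all but *Insr*, and 4 other motifs were searched on both strands. The NR5A1 site CAAGGTCA, which contains the half-site AGGTCA, was in no member window and in 1.33% of all windows. AGGTCA alone was in those of *Igf1* and *Igf1r* and in 14.0% of all, the SMAD element CAGAC in those of *Igf1r* and *Igfbp6* and in 42.2% of all, and TATAAA in those of *Igfbp4* and *Igfbp6* and in 12.4% of all. The TATAAA of *Igfbp4* began 28 bases before the start site. *Igf1* is listed with a RefSeq start 2846 bases from the GENCODE 5′ end of the gene, *Igf1r* with one 570 bases and *Igfbp6* with one 176 bases from it, and *Igfbp2* with 2 RefSeq starts. The windows of these genes need not be the promoters used here.

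**Figure D1:**
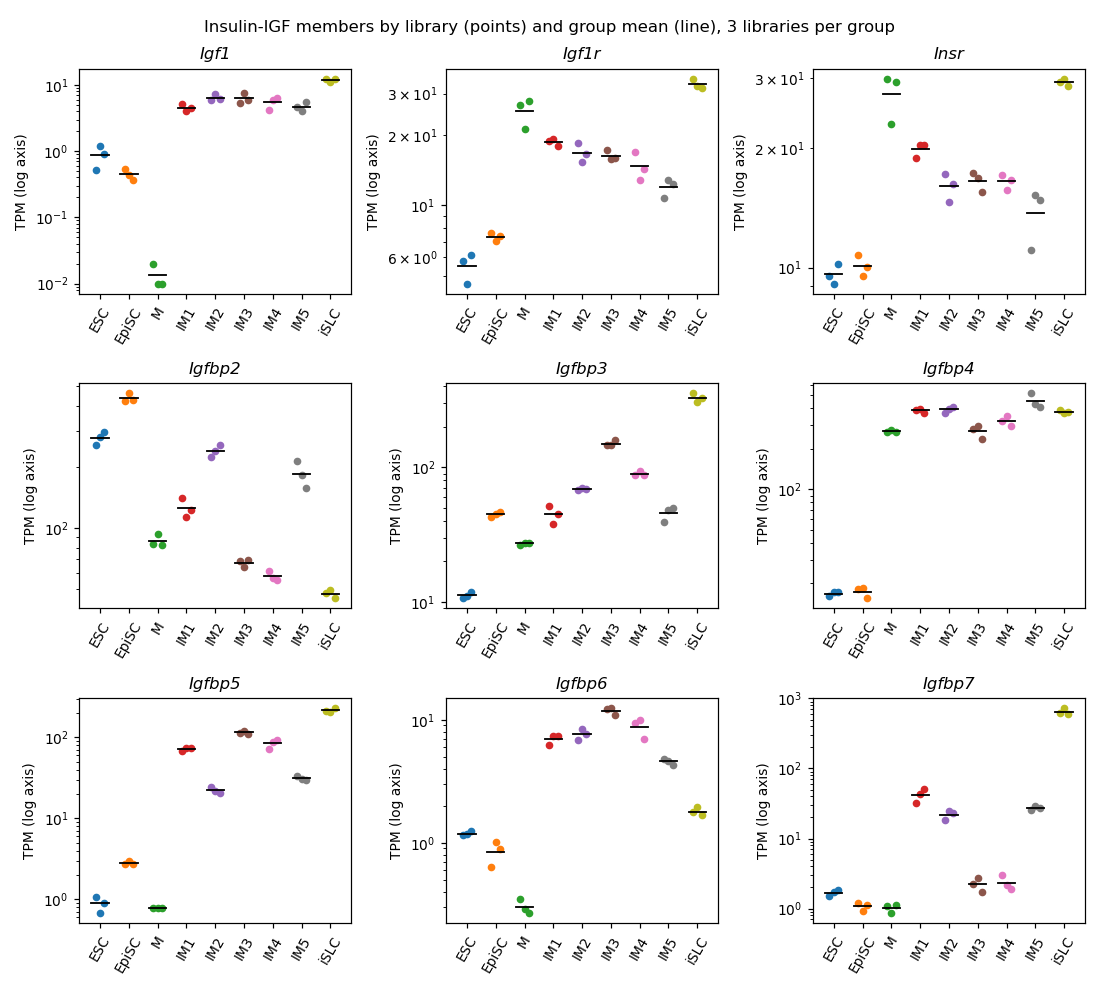
TPM of the 9 members in each library (points, log axis) with the mean of each group of 3 (line), by group from ESC to iSLC. *Igfbp2* was highest in EpiSC at 439 TPM, *Igfbp4* rose in M, and *Igfbp7* was at 601 to 731 TPM in iSLC against at most 51.8 TPM in any other library.

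The binding proteins exchanged places along the series. Summed over the 6, their level was 311 ± 21.8 TPM in ESC (mean ± SD, n = 3), 506 ± 21.3 in EpiSC and 385 ± 10.7 in M. It was between 566 and 755 TPM in the means of the IM conditions and 1623 ± 44.1 TPM in iSLC. A different gene held the largest share in 3 stretches of the series: *Igfbp2* in ESC and EpiSC, *Igfbp4* in M and in every IM condition, and *Igfbp7* in iSLC. *Igfbp2* made 89.8% ± 0.315 of the sum in ESC and 86.7% ± 0.293 in EpiSC, but 22.4% ± 0.922 in M and 2.92% ± 0.066 in iSLC. *Igfbp4* made 70.0% ± 0.751 in M, between 43.8% (IM3) and 60.7% (IM5) in the IM conditions and 23.3% ± 0.863 in iSLC. *Igfbp7* made 40.0% ± 3.27 in iSLC and at most 6.26% ± 1.51 in any other group, the latter in IM1. *Igfbp6* made at most 1.92% ± 0.0338 of the sum, in IM3.

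**Figure D2:**
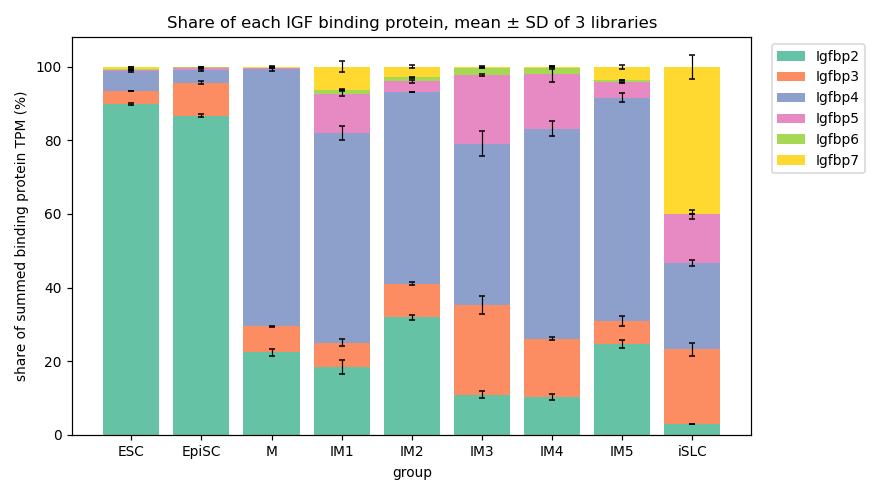
Share of each of the 6 binding proteins in their summed TPM (%), stacked by group, with the mean as bar height and the SD of 3 libraries as error bar. *Igfbp2* fills 89.8% of the ESC bar, *Igfbp4* 70.0% of the M bar and *Igfbp7* 40.0% of the iSLC bar.

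The ligand side was almost wholly *Igf2*, the fetal growth factor. *Igf2* was at 163 to 175 TPM in ESC, 59.0 to 61.4 in EpiSC and 170 to 184 in M. In all IM libraries it was at 1692 to 2407 TPM, and in iSLC at 2592 to 2640 TPM. *Igf1* made at most 0.872% of the summed TPM of both ligands in any library. The insulin gene *Ins1* was listed at 0 in all libraries and *Ins2* at 0.63 TPM at most, and *Igfbp1* was at 0.6 TPM at most. The levels of *Igf1* followed a course of their own. It was at 0.52, 1.21 and 0.89 TPM in ESC, 0.54, 0.44 and 0.37 in EpiSC, and 0.02, 0.01 and 0.01 in M, where each library held 2 counts, under the floor of 3 counts taken as detectable. It was at 5.14, 3.98 and 4.4 TPM in IM1, 5.82, 7.17 and 6.2 in IM2, and 5.4, 7.41 and 5.89 in IM3. IM4 gave 4.16, 5.87 and 6.43 TPM, IM5 4.65, 3.97 and 5.42, and iSLC 12.4, 10.95 and 12.1. In the order of the means, from IM2 over IM3, IM4 and IM5 to IM1, each IM condition overlapped with the next. The libraries of M lay below all others, and those of iSLC above. The effective length of *Igf1*, by which TPM is divided, varied between groups. It was 1279 to 1468 bases in EpiSC, 3204 to 6833 in M and 4756 to 5008 in iSLC. Steps in TPM therefore differ from steps in counts. Mean TPM was 0.45 in EpiSC and 0.0133 in M, and the mean normalized count was 25.3 and 2.21.

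The receptors followed like courses. *Igf1r* was at 5.81, 4.64 and 6.17 TPM in ESC, 7.6, 7.08 and 7.41 in EpiSC, and 26.7, 21.3 and 27.9 in M. It was at 10.7 to 19.2 TPM over the IM libraries and at 34.7, 32.3 and 31.6 TPM in iSLC, above every other library. *Insr* was at 9.51, 9.12 and 10.2 TPM in ESC, 10.8, 9.54 and 10.0 in EpiSC, and 29.8, 23.0 and 29.3 in M. It was at 11.1 to 20.4 TPM over the IM libraries and at 29.3, 29.9 and 28.6 TPM in iSLC, so that its M and iSLC libraries overlapped. *Insr* was the more abundant receptor in every library of ESC, EpiSC, M, IM4 and IM5. Divided by the TPM of *Insr*, that of *Igf1r* came to 0.574 ± 0.0567 (ESC), 0.729 ± 0.0205 (EpiSC) and 0.923 ± 0.0271 (M), and on average to 0.883 (IM5) to 1.045 (IM2) in the IM conditions. It was 1.13 ± 0.0543 in iSLC. It was above 1 in each of the 3 libraries of iSLC and of IM2, and on both sides of 1 in IM1 and IM3.

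**Figure D3:**
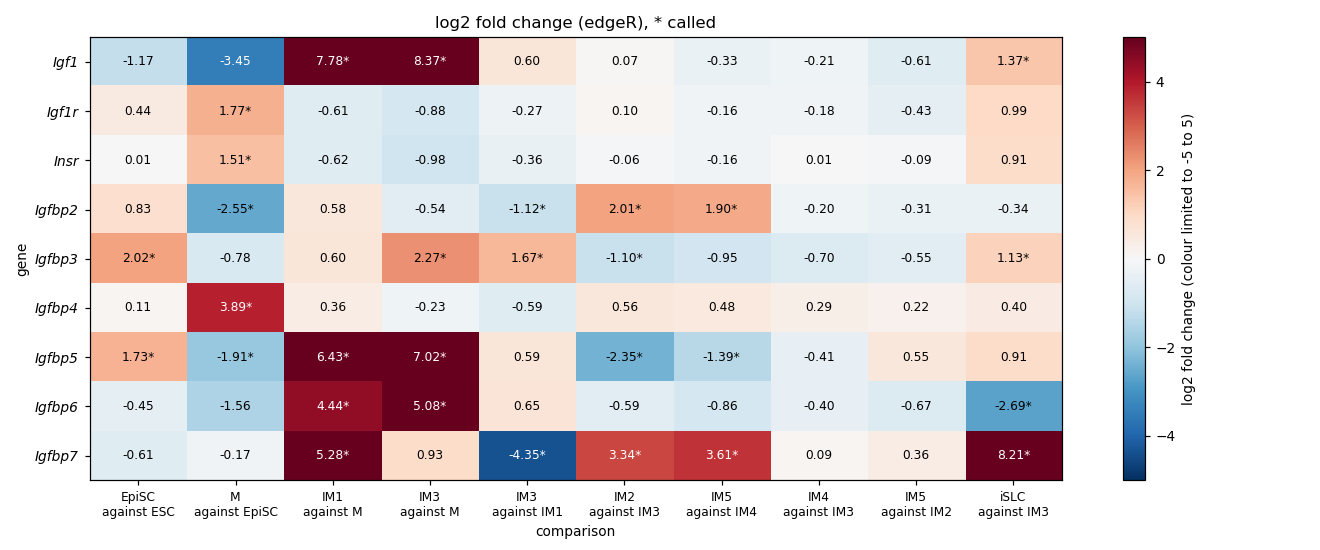
Fitted log2 fold changes (edgeR) of the 9 members in 10 comparisons, red for higher and blue for lower in the group named first, with the colour limited to 5 in either direction and an asterisk on called changes. IM4 against IM3 and IM5 against IM2 hold no asterisk, and the *Igfbp7* value of 8.21 in iSLC against IM3 has the deepest red of its column.

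Changes were tested with edgeR's quasi-likelihood test in 1 model over all libraries, and a gene was called when its adjusted p (Benjamini-Hochberg over the 20839 genes) was at most 0.01, its fold at least 2 and its normalized count at least 100, both as the mean of the 27 libraries and as the mean of 1 or more of the groups compared. The test of any difference over the 9 groups passed an adjusted p under 0.05 for 9 of 9 members, and for 96.4% of all genes tested. Only called changes are written of as rises or falls.

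From ESC to EpiSC, 2 of the 9 members were called, both higher, where 8.07% of all genes tested were called, 3.75% higher and 4.32% lower. *Igfbp3*, the main carrier of IGF in serum, rose from 10.7, 11.1 and 11.8 TPM to 43.0, 45.4 and 46.8 (log2 fold change 2.02, SE 0.086, adjusted p = 9.95e-17). *Igfbp5*, which also binds extracellular matrix, rose from 1.07, 0.68 and 0.91 TPM to 2.75, 2.94 and 2.7 (log2 1.73, SE 0.126, adjusted p = 5.84e-12). The groups did not overlap for either gene, but *Igfbp5* stayed low in both. *Igfbp2*, already the most abundant, went from 258, 280 and 299 TPM to 425, 462 and 430, with a log2 fold change of 0.83 that did not reach the fold minimum. *Insr* gave 0.01 (SE 0.070, adjusted p = 0.888) and *Igfbp4* 0.11 (SE 0.077, adjusted p = 0.212). The median over the members was 0.113 and over all genes tested -0.003.

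From EpiSC to M, 5 of 9 members were called, 3 higher and 2 lower, against 14.5% of all genes tested, of which 6.79% were higher and 7.72% lower. The largest change was that of *Igfbp4*, a binding protein cut by the protease PAPP-A, from 18.2, 18.4 and 15.6 TPM to 268, 275 and 266 (log2 3.89, SE 0.080, 14.8-fold, adjusted p = 8.84e-24). Both receptors rose with it, *Igf1r* by a log2 of 1.77 (SE 0.071, adjusted p = 1.06e-17) and *Insr* by 1.51 (SE 0.069, adjusted p = 1.58e-16). *Igfbp2*, a binding protein that also binds integrins, fell from 425, 462 and 430 TPM to 83.1, 93.1 and 82.3 (log2 -2.55, SE 0.112, adjusted p = 6.49e-17). *Igfbp5* fell back to 0.77, 0.79 and 0.78 TPM, the range of ESC (log2 -1.91, SE 0.126). *Igf1* counts in EpiSC were 11.5 times those of M after scaling, with a 95% interval of 5.06 to 32.1 that covers counting error only, from 84 and 6 counts in all. It was under the count minimum and not called. *Igfbp4* therefore took the place of *Igfbp2* as the most abundant binding protein within this step, while the sum over the 6 went from 506 to 385 TPM. M cells had been kept in an inhibitor of PI3-kinase, the enzyme downstream of both receptors, together with BMP4, and the parts of the medium cannot be told apart.

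From M to the IM conditions, 4 of 9 members were called in either comparison and all of them were higher. In IM1 against M, 15.7% of all genes tested were called, 9.72% higher and 5.94% lower. In IM3 against M these were 14.9%, 9.26% and 5.66%. *Igf1*, *Igfbp5* and *Igfbp6* rose in both, *Igfbp7* in IM1 and *Igfbp3* in IM3. The comparisons share the M libraries. *Igf1* counts after scaling were 231 times those of M in IM1 (95% counting interval 106 to 629) and 349 times in IM3 (160 to 953), from 6 counts in all of M. *Igfbp5* rose from under 1 TPM to 68.6, 75.0 and 73.2 TPM in IM1 (log2 6.43, SE 0.123, adjusted p = 2.36e-24) and to 115, 120 and 111 TPM in IM3 (log2 7.02, SE 0.125, adjusted p = 4.05e-25). *Igfbp6*, which prefers IGF2 to IGF1, rose from 0.35, 0.29 and 0.27 TPM to 6.24, 7.39 and 7.44 in IM1 (log2 4.44, SE 0.202) and to 12.1, 12.5 and 11.03 in IM3 (log2 5.08, SE 0.1999). No library of IM1 or IM3 overlapped with M for these genes. *Igfbp7*, which binds IGFs only weakly and is secreted into the matrix, rose from 1.1, 0.87 and 1.12 TPM to 32.3, 43.0 and 51.8 in IM1 (log2 5.28, SE 0.193, adjusted p = 1.16e-18). In IM3 it was at 2.27, 2.73 and 1.74 TPM, with a log2 of 0.93 (SE 0.313, adjusted p = 0.0108) that was not called. *Igfbp3* showed the other order, with a log2 of 2.27 (SE 0.082, adjusted p = 9.00e-19) in IM3 and 0.60 (SE 0.080) in IM1.

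*Igfbp4* stayed high, with log2 changes from M of 0.36 in IM1 and -0.23 in IM3. The receptors gave values below 0 that did not reach the fold minimum, -0.61 for *Igf1r* and -0.62 for *Insr* in IM1, and -0.88 and -0.98 in IM3. Marker genes of other cells were also higher in the IM conditions. Of 5 smooth muscle markers, 3 were called higher in IM1 against M and 2 in IM3 against M. Their summed TPM was 138 to 151 in M, 2426 to 2653.5 in IM1 and 1315 to 1599 in IM3. Of 5 cardiac muscle markers, 4 were called higher in either comparison. Of 8 endothelial markers, 6 were called higher in IM1 against M, and 6 higher and 1 lower in IM3, with summed TPM of 115 to 126 in M, 309 to 312 in IM1 and 158 to 187 in IM3. Of 6 visceral endoderm markers, 5 were called higher in IM1 and 4 in IM3, with sums of 10.96 to 12.6 TPM in M, 329 to 357 in IM1 and 337 to 401 in IM3. Of 8 markers of fibroblasts or stroma, 4 were called higher in IM1 and 7 in IM3, with sums of 63.3 to 70.8 TPM in M, 1022 to 1154 in IM1 and 1545 to 1838 in IM3. Their part in the levels of the binding proteins was not tested.

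The media of IM3 and IM1 differ by retinoic acid alone. The 2 groups also lie on different sides by red blood cell genes, which cannot be told apart from retinoic acid. Of the 9 members, 3 were called, 1 higher and 2 lower, against 6.34% of all genes tested, with 2.62% higher and 3.72% lower. *Igfbp7* fell from 32.3, 43.0 and 51.8 TPM to 2.27, 2.73 and 1.74 (log2 -4.35, SE 0.179, 20.3-fold, adjusted p = 9.64e-17), with no overlap. *Igfbp3* rose from 51.3, 38.2 and 44.9 TPM to 146, 145 and 159 (log2 1.67, SE 0.080, adjusted p = 1.89e-15), again with no overlap. *Igfbp2* fell from 140, 113 and 123 TPM to 68.5, 64.3 and 69.6 (log2 -1.12, SE 0.111, adjusted p = 2.97e-09). This call was lost with an offset for the GC trend of each library (log2 -0.70) and with one for effective length (log2 -0.99). *Igf1*, *Igfbp5* and *Igfbp6* gave 0.60, 0.59 and 0.65, under the fold minimum. The *Igfbp6* value was 1.04, and called, with the GC offset. Of the endothelial markers 5 of 8 were called lower in IM3, with summed TPM of 309 to 312 in IM1 and 158 to 187 in IM3, and of the fibroblast or stroma markers 5 of 8 were called higher. Of the smooth muscle markers 1 of 5 was called lower, with summed TPM of 2426 to 2653.5 in IM1 and 1315 to 1599 in IM3. Their part in these changes was not tested.

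Activin A was added to the retinoic acid medium without CHIR99021 (IM2 against IM3) and with it (IM5 against IM4). In the first, 4 of 9 members were called, 2 higher and 2 lower, against 3.8% of all genes tested, with 2.46% higher and 1.34% lower. In the second, 3 of 9 were called, 2 higher and 1 lower, against 4.09%, with 2.63% higher and 1.46% lower. *Igfbp7* was at 2.27, 2.73 and 1.74 TPM in IM3 and at 18.1, 24.5 and 23.4 in IM2 (log2 3.34, SE 0.189, adjusted p = 2.11e-13). With CHIR99021 it was at 2.98, 2.17 and 1.89 TPM in IM4 and at 25.5, 29.1 and 26.98 in IM5 (log2 3.61, SE 0.175, adjusted p = 8.70e-15). Its rise was therefore 10.1-fold in the first pair and 12.2-fold in the second, with no overlap of libraries in either. *Igfbp2* rose from 68.5, 64.3 and 69.6 TPM to 224, 241 and 257 (log2 2.01, SE 0.112, adjusted p = 1.61e-13), and from 61.4, 56.3 and 55.6 to 214, 182 and 158 with CHIR99021 (log2 1.899, SE 0.112, adjusted p = 3.74e-13).

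*Igfbp5* fell from 115, 120 and 111 TPM in IM3 to 24.1, 21.8 and 20.6 in IM2 (log2 -2.35, SE 0.093, adjusted p = 3.55e-16) and from 70.9, 89.0 and 92.9 in IM4 to 33.0, 30.4 and 29.9 in IM5 (log2 -1.39, SE 0.089, adjusted p = 1.85e-12). *Igfbp5* and *Igfbp2*, neighbours on chromosome 1, thus moved in opposite directions in both pairs. *Igfbp3* fell from 146, 145 and 159 TPM to 68.0, 70.2 and 69.4 without CHIR99021 (log2 -1.10, SE 0.079, adjusted p = 1.55e-11). With CHIR99021 it was at 88.5, 93.4 and 87.7 TPM against 39.1, 48.4 and 49.7 (log2 -0.95, SE 0.079, adjusted p = 2.52e-10), a 1.93-fold difference with no overlap that was just under the fold minimum and was called with the GC offset (log2 -1.0001). *Igfbp6* gave -0.59 and -0.86, the second of which was called with the GC offset (log2 -1.30). *Igfbp4* gave 0.56 and 0.48. The ligand and the receptors lay between -0.33 and 0.10 in both pairs.

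Other cell markers also differed in these pairs. Of the smooth muscle markers 0 of 5 were called in IM2 against IM3, and 1 was called higher in IM5 against IM4. Their summed TPM was 1315 to 1599 in IM3 and 2354 to 2432 in IM2. With CHIR99021 it was 1108.5 to 1385 in IM4 and 1904.5 to 2247 in IM5. Of the visceral endoderm markers 3 of 6 were called higher in IM2 and 2 of 6 in IM5, with summed TPM of 337 to 401 in IM3 and 599 to 779 in IM2, and of 378 to 450 in IM4 and 558 to 613 in IM5. Of the endothelial markers 1 of 8 was called higher in either pair and 1 lower in IM5, with summed TPM of 158 to 187 in IM3 and 187 to 197 in IM2, and of 169 to 179 in IM4 and 191 to 201 in IM5. The markers of this list did not move alike, with *Pecam1* at 8.24 to 11.6 TPM in IM3 and 20.6 to 23.4 in IM2, and *Tek* at 25.6 to 28.9 and 16.2 to 17.2 TPM. Of the cardiac muscle markers 3 of 5 were called lower with Activin A in both pairs, with summed TPM of 143 to 274 in IM3 and 98.8 to 119 in IM2, and of 77.0 to 85.3 in IM4 and 48.3 to 54.7 in IM5. Of the early mesoderm markers 3 of 5 were called higher in both, with sums of 1.85 to 2.44 and 24.3 to 25.4 TPM, and of 1.79 to 2.12 and 21.6 to 22.7 TPM. Of the ESC markers 3 of 4 were called higher in both, with sums of 20.7 to 21.9 and 62.2 to 65.5 TPM, and of 18.9 to 25.4 and 68.3 to 73.1 TPM. Of the intermediate mesoderm markers 2 of 4 were called higher and 1 lower in both. Their part in the changes of the binding proteins was not tested. The marker sums for fibroblasts or stroma overlapped between IM3 (1545 to 1838 TPM) and IM2 (1693 to 1837 TPM).

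**Figure D4:**
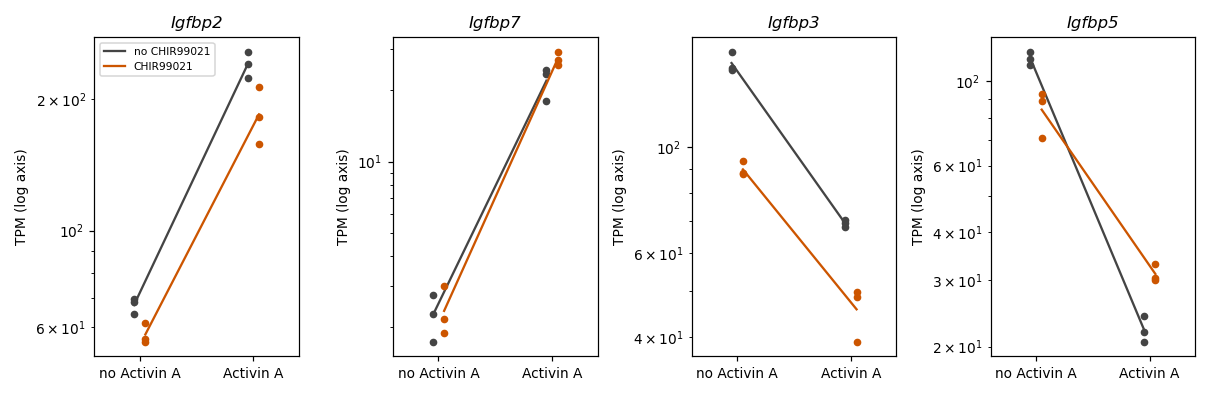
TPM (log axis) of 4 binding proteins without and with Activin A, in black without CHIR99021 (IM3 and IM2) and in orange with it (IM4 and IM5), with points for libraries and lines joining group means. The lines of *Igfbp2*, *Igfbp7* and *Igfbp3* do not cross, while those of *Igfbp5* do, from 115 and 84.3 TPM without Activin A to 22.2 and 31.1 TPM with it.

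CHIR99021 at this dose called no member. In IM4 against IM3, edgeR called 0 of 9, and DESeq2 also 0, while 6 of 9 members had an unadjusted p under 0.05 with edgeR and 7 with DESeq2. Of all genes tested 0.101% were called, all of them lower in IM4. In IM5 against IM2, edgeR and DESeq2 both called 0 of 9, with 8 of 9 at an unadjusted p under 0.05 in either, and 0.235% of all genes tested were called, 0.0432% higher and 0.192% lower. The share of all genes under that unadjusted p was not counted. With no fold minimum, edgeR called 2 members and 197 of the 20839 genes in IM4 against IM3. In IM5 against IM2 it called 5 members and 808 genes. *Igfbp3* differed most among the members in IM4 against IM3, by 1.63-fold (log2 -0.70, SE 0.078, adjusted p = 6.88e-06), and was also lower in IM5 than in IM2 (log2 -0.55, SE 0.079, adjusted p = 3.39e-05). Its libraries did not overlap in either pair. In IM5 against IM2, *Igfbp6* had the value farthest from 0 (log2 -0.67, SE 0.138, adjusted p = 0.00202), and *Igf1* and *Igf1r* gave -0.61 and -0.43. Of the cardiac muscle markers 3 of 5 were called lower with CHIR99021 in both pairs, with the sums given above, and none of the other marker lists had a called gene. Their part in the values of the members was not tested.

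*Igfbp5* was the member whose difference between media with and without Activin A itself differed with CHIR99021. The interaction, the Activin A difference with CHIR99021 minus that without, was 0.96 on the log2 scale (SE 0.125, adjusted p = 0.000165), and no other member passed an adjusted p of 0.01, where 0.182% of all genes tested passed. Seen from the other side, *Igfbp5* was lower with CHIR99021 when Activin A was absent (log2 -0.41, SE 0.088) and higher when it was present (log2 0.55, SE 0.089). The libraries of IM3 lay above those of IM4, and those of IM5 above those of IM2. Both differences were under the fold minimum. The interactions of *Igfbp2*, *Igfbp3* and *Igfbp7* were -0.11 (SE 0.155), 0.15 (SE 0.110) and 0.27 (SE 0.298), with adjusted p of 0.848, 0.647 and 0.788.

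In iSLC against IM3, 4 of 9 members were called, 3 higher and 1 lower, against 19.2% of all genes tested, with 10.3% higher and 8.92% lower. *Igfbp7* rose from 2.27, 2.73 and 1.74 TPM to 618, 731 and 601 (log2 8.21, SE 0.175, 297-fold, adjusted p = 1.45e-23) and became the most abundant of the 6 binding proteins. *Igfbp3* rose from 146, 145 and 159 TPM to 354, 308 and 327 (log2 1.13, SE 0.078, adjusted p = 5.23e-13). *Igfbp6* fell from 12.1, 12.5 and 11.03 TPM to 1.77, 1.94 and 1.68 (log2 -2.69, SE 0.152, adjusted p = 9.50e-15). No library of iSLC overlapped with one of IM3 for these genes. *Igf1* rose from 5.4, 7.41 and 5.89 TPM to 12.4, 10.95 and 12.1 (log2 1.37, SE 0.088, adjusted p = 1.38e-13), a call that was lost with an offset for effective length (log2 0.95).

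*Igf1r* lay at the fold minimum. Its log2 fold change was 0.99 (SE 0.070, adjusted p = 8.23e-13), a 1.99-fold difference that was not called here and was called with DESeq2 (1.007) and with the GC offset (1.07). *Insr* gave 0.91 (SE 0.068) and was called with the GC offset (1.05). *Igfbp5*, at 209, 206 and 231 TPM in iSLC, gave 0.91 (SE 0.088), *Igfbp4* 0.40 and *Igfbp2* -0.34. All 9 members had an unadjusted p under 0.05, and the median over them was 0.913, against 0 over all genes tested. The share of all genes under that p was not counted. With no fold minimum, 10507 of the 20839 genes tested were called. Stromal and vascular markers moved in the same comparison. Of the smooth muscle markers 1 of 5 was called higher, with summed TPM of 1315 to 1599 in IM3 and 2685 to 2774 in iSLC. Of the fibroblast or stroma markers 6 of 8 were called higher in iSLC, with summed TPM of 1545 to 1838 in IM3 and 6290 to 6362 in iSLC, and *Dcn* was at 16.7 to 17.3 TPM in IM3 and 198 to 214 in iSLC. Of the endothelial markers 7 of 8 were called lower and 1 higher, with sums of 158 to 187 and 59.1 to 64.3 TPM, and of the visceral endoderm markers 6 of 6 were called lower, with sums of 337 to 401 and 10.6 to 17.4 TPM. Their part in the levels of the members was not tested.

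The order of the groups by mean TPM differed from gene to gene, and many neighbours in it overlapped. For *Igfbp2* the order from high to low was EpiSC, ESC, IM2, IM5, IM1, M, IM3, IM4 and iSLC, and no neighbours overlapped. For *Igfbp7* it was iSLC, IM1, IM5, IM2, IM4, IM3, ESC, EpiSC and M, and the libraries of IM4 and IM3, of IM3 and ESC, and of EpiSC and M overlapped. For *Igfbp4* the libraries of IM5, IM2, IM1 and iSLC overlapped from neighbour to neighbour, as did those of IM4, IM3 and M and those of EpiSC and ESC, which left a wide gap between 235 TPM, the lowest value from M onwards, and 18.4 TPM, the highest before it. For *Igfbp3* the only neighbours that overlapped were IM5 with EpiSC and EpiSC with IM1. For *Igfbp5* these were IM4 with IM1 and ESC with M.

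The rest of the pathway was read from 7 lists with 39 genes, of which 37 were tested. The count of called genes was 7 in EpiSC against ESC (3 higher), 9 in M against EpiSC (6 higher), 10 in IM1 against M (7 higher), 10 in IM3 against M (6 higher), 7 in IM3 against IM1 (2 higher) and 11 in iSLC against IM3 (5 higher). Over all genes tested, the shares called were 8.07%, 14.5%, 15.7%, 14.9%, 6.34% and 19.2% in the same order. With Activin A, 2 were called without CHIR99021, both higher, against 3.8% of all genes tested. With CHIR99021 present, 4 were called, 3 of them higher, against 4.09%. CHIR99021 gave 0 by edgeR and 0 by DESeq2 in IM4 against IM3 (6 genes at an unadjusted p under 0.05 in either) and in IM5 against IM2 (17 and 16 genes). The interaction gave 0 by edgeR and 1 by DESeq2, with 9 and 10 genes at an unadjusted p under 0.05. Over all genes tested, edgeR called 0.101% in IM4 against IM3, 0.235% in IM5 against IM2 and 0.182% in the interaction. Shares of all genes under that unadjusted p were not counted.

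*Igf2* fell from ESC to EpiSC (log2 -1.54, SE 0.046), rose in M (log2 1.61, SE 0.046) and rose again from M to IM1 (log2 3.41, SE 0.049) and IM3 (log2 3.16, SE 0.048). *Igf2r*, the receptor that clears IGF2, rose alongside it from M, at 58.5 to 73.1 TPM, to IM1, at 345 to 366 (log2 2.29, SE 0.050). In iSLC *Igf2r* was at 111 to 112 TPM, a fall from IM3 (log2 -1.10, SE 0.049), while *Igf2* was not called there.

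Proteases of the binding proteins varied with the same treatments. *Pappa*, the protease of IGFBP4, was at 0.23 to 0.32 TPM in M and at 9.19 to 10.99 TPM in IM3 (log2 5.04, SE 0.128), above IM1 at 2.82 to 3.61 TPM (log2 1.54, SE 0.097 for IM3 against IM1). *Htra1*, a secreted serine protease that cuts IGFBP5, was at 16.9, 13.7 and 15.6 TPM in IM3 and at 173, 190 and 194 TPM in IM2 (log2 3.80, SE 0.148, adjusted p = 3.44e-16). It was at 32.2, 16.5 and 20.0 TPM in IM4 and at 226, 260 and 253 TPM in IM5 (log2 3.71, SE 0.144). In both pairs *Htra1* transcripts were higher with Activin A and those of *Igfbp5* lower. Whether these changes are linked was not tested, and cutting of the protein was not measured. *Stc1*, an inhibitor of PAPP-A, was at most 2.91 TPM in any library. The other inhibitor listed, *Stc2*, was at 7.48 to 9.93 TPM in ESC, 4.91 to 6.56 in EpiSC and 1.56 to 1.79 in iSLC. *Igfbpl1*, a protein related to the binding proteins, fell from 6.64 to 6.90 TPM in M to 0.21 to 0.64 TPM in IM3 (log2 -4.61, SE 0.188).

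Between the receptors and PI3-kinase the largest change was in iSLC. *Grb10*, an imprinted adaptor that inhibits both receptors, was at 379 to 383 TPM in IM3 and at 13.8 to 16.1 TPM in iSLC (log2 -4.70, SE 0.058, adjusted p = 1.27e-27). *Pik3cb*, a catalytic subunit of PI3-kinase, was at 15.6 to 17.5 TPM in IM3 and at 2.21 to 2.30 in iSLC (log2 -2.85, SE 0.062). The other catalytic subunit listed, *Pik3ca*, was at 19.4 to 24.8 TPM in IM3 and at 32.9 to 35.8 in iSLC, and was not called. The regulatory subunits *Pik3r1* and *Pik3r2* rose (log2 1.43 and 1.74). The docking protein *Irs1* rose from ESC to EpiSC (log2 2.68, SE 0.213) and from IM1 to IM3 (log2 1.84, SE 0.162) and fell in iSLC (log2 -1.33, SE 0.159). *Irs4*, another docking protein, rose with Activin A in both pairs (log2 2.83 and 2.84), from levels of at most 0.24 TPM to 1.12 to 1.59 TPM.

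**Figure D5:**
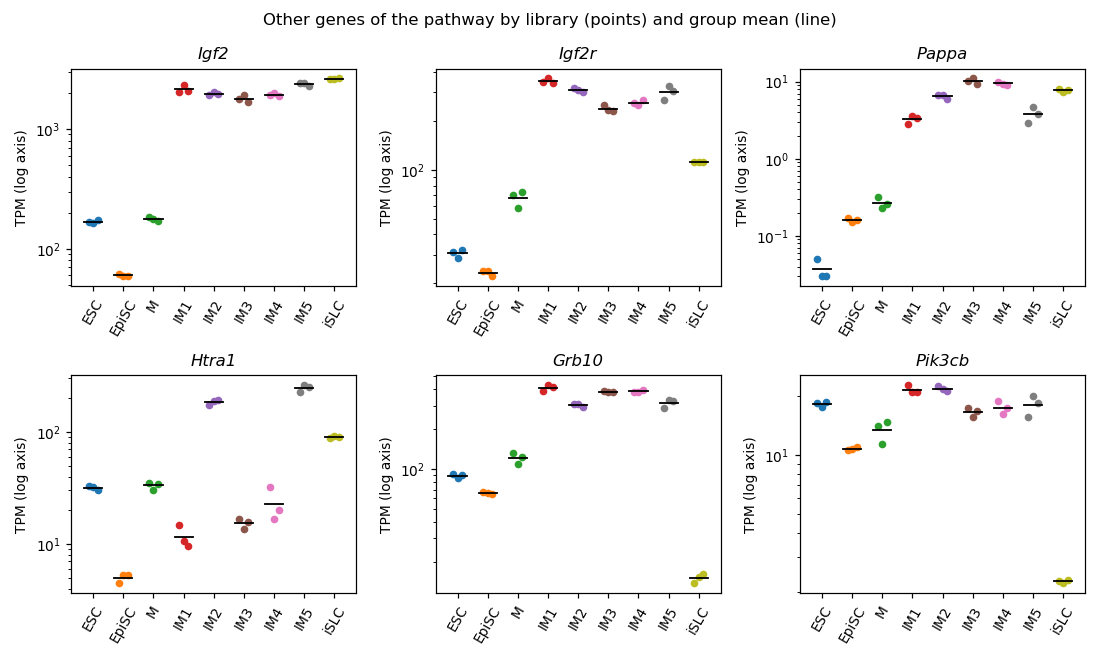
TPM (log axis) of 6 other genes of the pathway in each library (points) with group means (line). *Igf2* lies above 1690 TPM in every IM and iSLC library, *Htra1* is high in IM2 and IM5, and *Grb10* and *Pik3cb* are lowest in iSLC, at 15.1 and 2.26 TPM on average.

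The genes whose patterns were most like those of the members were found by Pearson's r of log2 normalized values over the 27 libraries among 13477 genes, as a description only, since all genes share the libraries and the large steps between stages. They were *Pcsk5*, *Id1* and *Unc5c* for *Igfbp4* (r = 0.992, 0.991 and 0.991), *Rab11fip5*, *Gas6* and *Prkar1b* for *Igfbp7* (0.977 to 0.969), and *Tfpt*, *Dohh* and *Capg* for *Igfbp2* (0.949 to 0.927). *Igfbp3* was most like *Lbh*, *Ssbp2* and *AI506816* (0.975 to 0.963), *Igfbp5* like *Adamts9*, *Pcdhb17* and *Smarca2* (0.973 to 0.972) and *Igfbp6* like *Tmem62*, *Rasgrf2* and *Susd1* (0.972 to 0.970). *Igf1* was most like *Tns1*, *Rcsd1* and *Plcb1* (0.985 to 0.983), *Igf1r* like *Nin*, *Nek9* and *Itsn1* (0.958 to 0.956) and *Insr* like *Gramd4*, *Tmem164* and *Plcg1* (0.971 to 0.960). No member was among the 3 genes most like another member.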

How the data were processed

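Per the labels and the study's methods, the authors trimmed paired reads with cutadapt 1.9.1, aligned them to GRCm38 with Ensembl transcripts using STAR 2.5.2a and estimated abundance with RSEM 1.3.0. The expected counts they deposited are not normalized between libraries. Their TPM and FPKM values, as deposited, are corrected for length and scaled to the library. Replicates were not pooled.

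Expected counts were rounded. Genes were named from GENCODE M21 (48349 of 48795 matched). edgeR 4.0.16 (R 4.3.3) was run with filterByExpr, TMM factors and glmQLFit and glmQLFTest over all 27 libraries, with a coefficient per group and the thresholds of the study. A gene under 3 counts in a library was taken as not detectable, and intervals cover counting error only. Alternatives were DESeq2 1.42.0, its size factors, offsets for effective length or GC content, no low-count filter, other thresholds, only the compared groups, the replicate number as a block, each library left out in turn, and FPKM. The steps were tested on simulated counts. Deviations of same-numbered libraries correlated by 0.019 on average, and each pair did so by over 0.1 only in IM4 against IM3 (0.177 to 0.233), where the numbers, which come from the labels, were taken to pair the libraries. The main model did not use this pairing. The members and lists were chosen with earlier results of these data known. Genes named are all members and the 3 genes most like each member. From the pathway lists, genes called with a fold of at least 4 or holding a ligand or receptor are named. The regulatory subunits, *Pik3ca*, *Stc2* and markers were named after their values were seen.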

Additional observations from a re-analysis of the deposited data

Results flagged for a closer look

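IM5 against IM4 and IM2 against IM3 both compare media with and without Activin A. Both also cross the sides by red blood cell genes, which cannot be told apart from Activin A. For *Igfbp5* these differences differed by a test of the difference itself. The Activin A difference with CHIR99021 minus that without was 0.96 on the log2 scale (0.9605, SE 0.125, edgeR, adjusted p = 0.000165). It lay between 0.84 and 1.06 with each library of the 4 groups left out in turn, and passed an adjusted p of 0.01 each time.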

How the results depend on the processing

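Limits of depth were met by *Igf1* alone, at 2 counts in each M library. Of 1440 recomputed fold changes of members, 1400 kept their direction and their call, 20 became called, 4 lost the call and 16 changed sign. The number of members called moved by over 1.5 times with no fold minimum, to 4 in EpiSC against ESC, 9 in IM1 against M, 8 in IM3 against M, 9 in IM3 against IM1, 7 in IM5 against IM4, 2 in IM4 against IM3, 5 in IM5 against IM2 and 9 in iSLC against IM3, and to 5 in IM5 against IM4 with the GC offset, with or without the replicate block. With no fold minimum, in the same order, 7857, 9940, 9485, 7198, 6631, 197, 808 and 10507 of the 20839 genes tested were called. In IM5 against IM4, 764 genes were called with the GC offset and 765 with the block added. The replicate block alone changed no call of a member. This block is a term for the replicate number shared by all 9 groups. It does not model a pairing of IM4 with IM3 only, which was not fitted. The *Igfbp5* interaction was 0.96 with the block as without.

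The changes of sign were all of uncalled values. The *Insr* difference of EpiSC against ESC was -0.0238 with DESeq2's size factors, -0.024 with its test, and -0.038 to 0.075 without 1 library. That of IM2 against IM3 was 0.0076 with the GC offset and 0.0075 with the block added. That of IM4 against IM3 was -0.002 with DESeq2's size factors, -0.0019 with its test, -0.0007 with the GC offset, -0.001 with the block added, and -0.0102 to 0.0413 without 1 library. Without 1 library, *Igfbp7* in IM4 against IM3 was -0.0969 to 0.2234 and the *Igfbp2* interaction -0.2752 to 0.0101. The cause was not tested.

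Without 1 library, *Igf1r* in iSLC against IM3 was called without IM3 replicate 1 or 3 or iSLC replicate 2 or 3 (log2 1.0049 to 1.0452), *Igfbp6* in IM5 against IM4 without IM4 replicate 3 (log2 -1.0005) and *Insr* in IM3 against M without M replicate 2 (log2 -1.08). Over all genes tested, 38 passed the interaction with edgeR and 145 with DESeq2. Without the count minimum, *Igf1* in EpiSC against ESC and in M against EpiSC, and *Igfbp6* in M against EpiSC, were called. Shares of the binding proteins without 1 library moved by less than the SD between libraries, and 34 to 36 of the 36 pairs of groups kept their order by mean FPKM for each member.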

Other observations

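The effective length that RSEM gave *Igfbp2*, its average over the transcripts of the gene, fell on the same sides as the red blood cell genes. It was 918 to 1023 bases in ESC, M, IM3 and IM4 (12 libraries) and 1092 to 1114 bases in EpiSC, IM1, IM2, IM5 and iSLC (15 libraries). The effective lengths of *Igfbp3* overlapped between these sides, at 2166 to 2217 and 2167 to 2203 bases, as did those of *Igfbp7*, at 877 to 931 and 917 to 928 bases. With an offset for effective length the *Igfbp2* change in IM3 against IM1 was -0.99 on the log2 scale, against -1.12 without it.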
